A study of Sus scrofa with 12 samples.

Results

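The genes described here encode proteins of the uterine secretions and the surface of the uterine epithelium. They are ACP5 (uteroferrin), UABP-2, SPP1, SLPI, MUC1, LTF and S100G. They were chosen by symbol from the gene table of the study, and all 7 were found, each once, among its 20674 genes. The RNA came from endometrium, the inner lining of the uterus, of Landrace × Yorkshire sows in a factorial trial of dietary fiber and N-carbamylglutamate (NCG), an analog of the N-acetylglutamate that activates the synthesis of arginine precursors. The L − N group received 3.73% crude fiber without NCG, L + N the same diet with 0.05% NCG, H − N 7.46% crude fiber without NCG, and H + N 7.46% crude fiber with 0.05% NCG. The high-fiber diets contained soybean bran and beet pulp in place of part of the corn. Feeding lasted for 114 days of gestation in all groups, and 100 sows per group were fed. Each group had 3 libraries, 12 in all, and group membership was read from the code in each library's title. The sources used here do not tie each library to an animal, so the p-values measure the spread between these libraries.

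Endometrial glands release a protein-rich secretion that feeds the embryo and fetus of the pig, whose placenta does not invade the uterine wall. Progesterone drives much of this secretion, and uteroferrin, a purple acid phosphatase that carries iron to the conceptus, is its best known protein in this species. Other components inhibit proteases, bind microbes or iron, or link the epithelium to the trophoblast through integrins. Several of the genes are also active outside glands. ACP5 and SPP1 are expressed in macrophages, and LTF in neutrophil granules. MUC1 is anchored in the cell membrane, and S100G is a calcium-binding protein of the cytosol rather than a secreted one.

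Total counts ranged from 14369781 to 19309724 per library. Levels are given as CPM, the counts scaled to library size with TMM factors that correct for differences in library composition. Differences were taken from edgeR's quasi-likelihood fit to the 12 libraries, with Benjamini-Hochberg adjustment over the 15351 genes that passed the filter on low counts. A gene was called differentially expressed where the adjusted p was under 0.05 and the absolute log2 fold change exceeded 1. All 7 genes passed the filter. UABP-2 exceeded the filter level of 0.616 CPM in 4 libraries only, and 3 of those were the L − N libraries. Within L − N, replicate 1 stood apart from replicates 2 and 3 for several genes, as described below. In bulk endometrium, fewer cells of a type and less RNA per cell cannot be told apart.

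Per length of transcript, the 7 genes covered a wide range. On the FPKM scale (fragments scaled to transcript length and library size), SLPI was highest, at 444 to 1633 over the 12 libraries. SPP1 followed at 22.8 to 803 and ACP5 at 28.6 to 212. S100G lay between 2.88 and 89.5 FPKM, LTF between 0.714 and 86.9, and MUC1 between 5.11 and 18.6. UABP-2 stayed between 0 and 1.06 FPKM, so the transcript of the uteroferrin-associated protein was close to absent in this tissue while that of uteroferrin itself was plentiful.

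**Figure D1:**
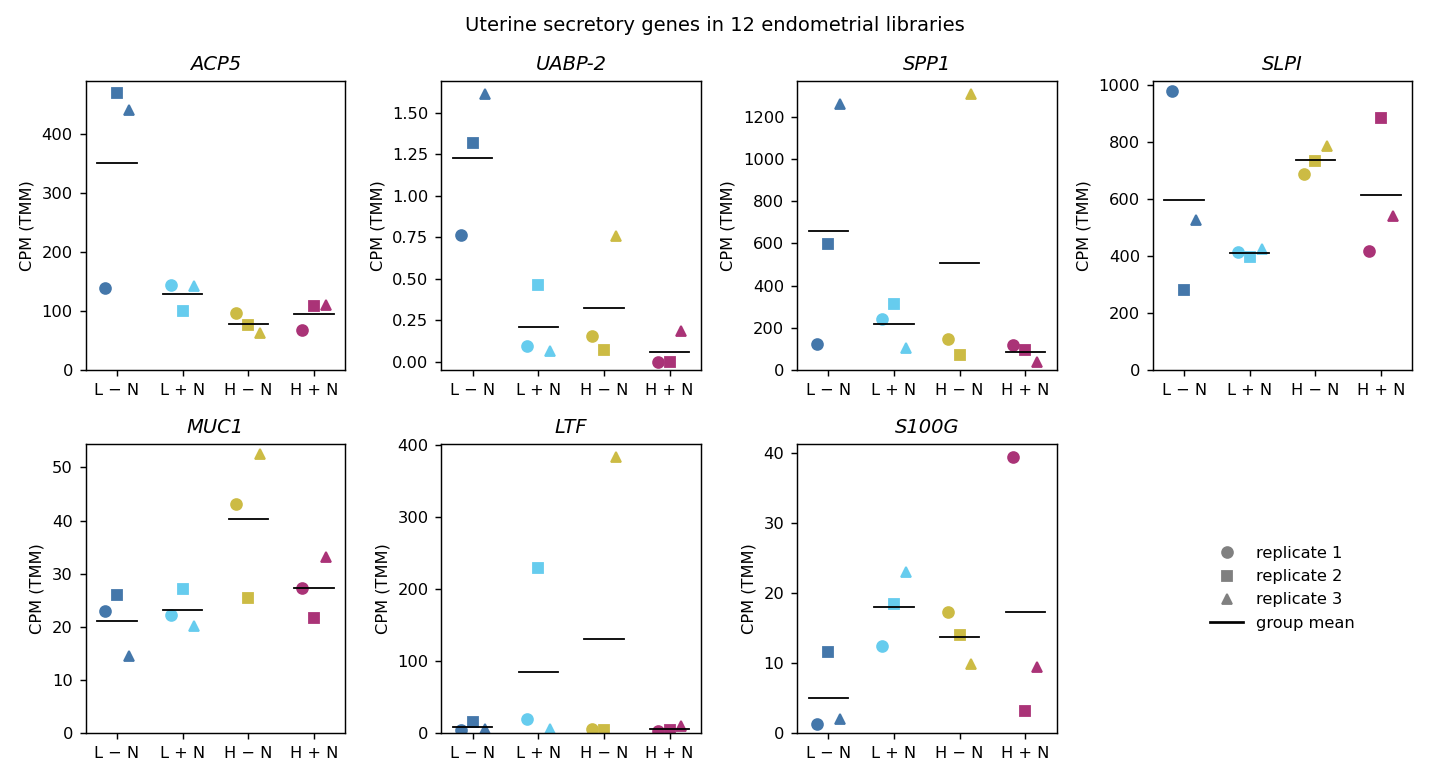
Level of each of the 7 genes in CPM (vertical axes, linear, from 0) in the 3 libraries of each dietary group, with symbols for the replicate number and a line at the group mean. ACP5 lay at 441 and 469 CPM in L − N replicates 3 and 2 and at no more than 145 CPM in the other libraries, while LTF exceeded 200 CPM in L + N replicate 2 and H − N replicate 3 alone.

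Uteroferrin RNA was highest in L − N and lower in each of the other diets. ACP5 (gene identifier 397414, chromosome 2, 70206159 to 70209855, minus strand, Sscrofa11.1) was at 139, 469 and 441 CPM in L − N replicates 1, 2 and 3. It was at 145, 101 and 143 CPM in L + N, at 96.5, 76.4 and 63.0 CPM in H − N, and at 68.3, 109 and 110 CPM in H + N. The L − N libraries did not overlap those of either high-fiber group. They overlapped those of L + N, because L − N replicate 1 was slightly below the highest L + N libraries. The mean was 350 ± 183 CPM for L − N (SD, n = 3), followed by 129 ± 24.8 CPM for L + N, then 95.8 ± 23.8 CPM for H + N, then 78.6 ± 16.9 CPM for H − N, and neighbors in this order overlapped in every case.

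The differences of ACP5 from L − N passed the test in all 3 comparisons, which share the L − N libraries and are therefore not independent of each other. The level was 3.65-fold lower in H + N (log2 fold change −1.87, standard error 0.389, adjusted p = 0.0234 in edgeR's quasi-likelihood test). It was 4.44-fold lower in H − N (log2 fold change −2.15, standard error 0.393, adjusted p = 0.0214), and 2.71-fold lower in L + N (−1.44, 0.384, adjusted p = 0.0400). With only the 2 groups of each comparison in the fit, all 3 missed the threshold (adjusted p = 0.0833 for H + N, 0.106 for H − N and 0.0788 for L + N), with log2 fold changes of −1.89, −2.17 and −1.43. The L + N difference also missed it with scaling by library totals alone (0.0514). Over the 4 groups together, ACP5 was the only 1 of the 7 genes with an adjusted p under 0.05 (0.0225), a threshold that 6.96% of all genes tested passed. Averaged over NCG, the high-fiber diets had 2.45-fold less ACP5 than the low-fiber diets, with an adjusted p of 0.0678 that missed the threshold in edgeR's test and 0.000267 in DESeq2. The interaction of fiber and NCG was 1.72 on the log2 scale (standard error 0.538, adjusted p = 0.279). Between H + N and H − N the log2 difference was 0.29, with a 95% interval from −0.55 to 1.12, and between H + N and L + N it was −0.43 (−1.26 to 0.40).

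These calls depended on single libraries. The difference of H + N from L − N lost its call without L − N replicate 2 (adjusted p = 0.0572) or 3 (0.0962) and without H + N replicate 1 (0.0816) or 3 (0.0576), and its log2 fold change ranged from −2.25 to −1.60 over the 12 libraries left out in turn. That of H − N was lost without L − N replicate 2 (0.0562), L − N replicate 3 (0.0949), or any of the H − N libraries (0.0523 to 0.0673), with log2 fold changes between −2.53 and −1.88. That of L + N was lost without L − N replicate 2 (0.118), L − N replicate 3 (0.141), any of the L + N libraries (0.0887 to 0.145) or H − N replicate 2 (0.0555), with log2 fold changes between −1.81 and −1.17. Without L − N replicate 1, the fiber effect (log2 fold change −1.48, adjusted p = 0.00190) and the interaction (adjusted p = 0.0126) passed the test as well. The call over the 4 groups was lost without L − N replicate 2 (0.0699), L − N replicate 3 (0.112) or L + N replicate 2 (0.0509).

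Macrophage markers moved with ACP5. The 11 genes of the macrophage marker list (CD68, CD163, CD14, CSF1R, MRC1, C1QA, C1QB, C1QC, AIF1, MSR1 and CTSS) were all tested, and all had lower estimates than in L − N in each of the 3 other groups. Of these 11, 4 were differentially expressed in H + N, 7 in H − N and 2 in L + N, all lower than in L − N. Among all genes tested, 1.28%, 2.01% and 0.671% were called lower in these groups. Their summed level was 1731 to 4800 CPM in L − N, where replicate 1 was the lowest, 1610 to 2242 CPM in L + N, 1029 to 1429 CPM in H − N and 1551 to 1939 CPM in H + N. None of the 11 was at 0 in any group. The number of ACP5 counts per 100 counts of the list, a ratio chosen after the values were seen, was 8.05 to 9.77 in L − N, 4.93 to 8.85 in L + N, 5.35 to 7.44 in H − N and 3.52 to 7.09 in H + N. By this ratio the lowest L − N library, at 8.05, was above the highest of H − N, at 7.44, and of H + N, at 7.09. It was below the highest of L + N, at 8.85. The part of macrophage RNA in the ACP5 difference was not tested. The 11 tested epithelial markers summed to 1212 to 1723 CPM in L − N and 1463 to 2707 CPM in the other groups, and 0 of them were differentially expressed in these 3 comparisons by edgeR (5 in H − N and 0 in L + N and H + N at an unadjusted p under 0.05). Of all genes tested, 27.5% in H + N, 24.4% in H − N and 27.8% in L + N had an unadjusted p under 0.05 against L − N. The epithelial marker CDH1 was higher in H − N than in L − N (log2 fold change 0.830, adjusted p = 0.0279 by edgeR) and missed only the threshold on the fold change. Over the 4 groups together, 1 of the 11 epithelial markers had an adjusted p under 0.05, as did 6.96% of all genes tested.

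**Figure D2:**
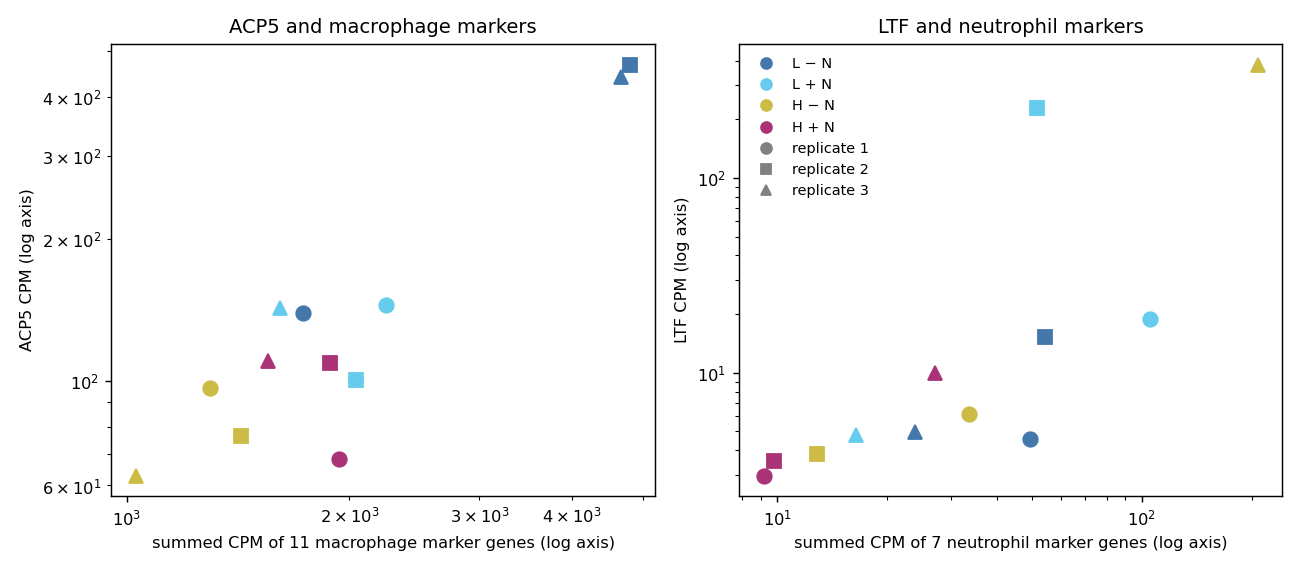
ACP5 against the summed CPM of 11 macrophage marker genes, and LTF against the summed CPM of 7 neutrophil marker genes, each point a library (all axes logarithmic, in CPM; color for the group and symbol for the replicate). L − N replicates 2 and 3 were highest for both ACP5 and macrophage markers, and H − N replicate 3 was highest for both LTF and neutrophil markers.

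The serpin UABP-2 (gene identifier 396843, chromosome 7, 115685830 to 115696632, minus strand), which forms a complex with uteroferrin, was close to the limit of detection. Its read counts were 12, 21 and 24 in L − N, 2, 8 and 1 in L + N, 3, 1 and 11 in H − N, and 0, 0 and 3 in H + N. On the CPM scale this was 0.764 to 1.61 in L − N, 0.0654 to 0.466 in L + N, 0.0694 to 0.759 in H − N and 0 to 0.184 in H + N. Every L − N library was above every other library, although L − N replicate 1 (0.764) exceeded H − N replicate 3 (0.759) by very little. No H + N library had more than 3 counts, the floor used here, and against that floor UABP-2 was at least 6.78-fold lower in H + N than in L − N. UABP-2 entered the test mainly through the L − N libraries, where it was high, so its call is given as a description. The adjusted p for H + N against L − N was 0.0466 in edgeR's test and 0.0543 without the filter on low counts, and without each library in turn it was under the threshold in 3 of 12 cases, those without L − N replicate 1, L + N replicate 2 or H − N replicate 3 (adjusted p from 0.0336 to 0.135 over the 12). The differences of H − N (adjusted p = 0.226) and L + N (0.115) from L − N missed the threshold. The gene lies among other serpin genes, and reads shared with them could not be examined.

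Osteopontin RNA was the most variable among libraries of the abundant genes. SPP1 (gene identifier 397087, chromosome 8, 131077786 to 131085334, minus strand) encodes a secreted phosphoprotein that binds integrins and is made by uterine epithelium and by macrophages. Its level was 126, 597 and 1258 CPM in L − N, 245, 315 and 103 CPM in L + N, 146, 70.7 and 1305 CPM in H − N, and 120, 97.5 and 36.5 CPM in H + N. L − N replicate 3 and H − N replicate 3 were about equally high. H − N replicate 2 lay within the range of H + N, and H − N replicate 1 lay slightly above it. The H + N libraries were all below those of L − N, and they overlapped those of L + N and H − N.

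None of the SPP1 differences passed edgeR's test. H + N was 7.79-fold below L − N (log2 fold change −2.96, standard error 1.08, adjusted p = 0.104), and the groups with NCG were 4.23-fold below those without (−2.08, 0.736, adjusted p = 0.115). DESeq2 gave adjusted p-values of 0.0296 and 0.0386 for these differences. Without H − N replicate 3, edgeR's adjusted p for H + N against L − N was 0.0412, and the NCG effect shrank to −0.97 on the log2 scale. The estimate for H − N against L − N was −0.38 with all libraries and −2.60 without H − N replicate 3. SPP1 counts per 100 counts of the macrophage list ranged from 2.36 to 27.0 in all libraries except H − N replicate 3, where the value was 127.

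SLPI, the secretory leukocyte protease inhibitor that blocks neutrophil elastase, had the highest level per length of the 7 genes and no difference that passed the test. SLPI (gene identifier 396886, chromosome 17, 47595804 to 47598364, minus strand) was at 977, 280 and 526 CPM in L − N, 413, 397 and 424 CPM in L + N, 687, 731 and 786 CPM in H − N, and 416, 881 and 538 CPM in H + N. The L + N libraries were close together and below all those of H − N, while L − N spanned the full range of the other groups. Against L − N, the log2 differences were 0.04 in H + N (95% interval −0.78 to 0.86), 0.31 in H − N (−0.51 to 1.13) and −0.53 in L + N (−1.35 to 0.29). None passed the test, the smallest of their adjusted p-values being 0.384, and the intervals for H − N and L + N, though not that for H + N, reach beyond a log2 difference of 1. Without L − N replicate 1 the estimates were 0.60 in H + N, 0.87 in H − N and 0.03 in L + N. A second antileukoproteinase gene lies next to SLPI, and reads shared by this pair could not be examined.

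MUC1, a transmembrane mucin of the apical epithelial surface that is lost from receptive uterine epithelium in many mammals, was highest in H − N. MUC1 (gene identifier 397382, chromosome 4, 94626317 to 94631194, plus strand) was at 23.0, 26.0 and 14.5 CPM in L − N, 22.1, 27.0 and 20.1 CPM in L + N, 43.1, 25.4 and 52.6 CPM in H − N, and 27.3, 21.6 and 33.0 CPM in H + N. H − N replicates 1 and 3 were above all other libraries, and H − N replicate 2 lay within the range of L − N. The difference of H − N from L − N was 1.91-fold (log2 fold change 0.93, standard error 0.285, adjusted p = 0.0792), and that of the high-fiber from the low-fiber diets was 0.59 on the log2 scale (standard error 0.200, adjusted p = 0.152). Neither passed the test. The epithelial marker sum was also highest in H − N (1856 to 2707 CPM). MUC1 counts per 100 counts of that list were 1.20 to 1.51 in L − N, 1.12 to 1.52 in L + N, 1.37 to 1.94 in H − N and 1.34 to 2.23 in H + N. By this ratio the highest library was H + N replicate 3, and H − N and H + N overlapped. Whether the amount of epithelium contributed was not tested.

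Lactoferrin RNA was low in most libraries and high in a pair of them from different diets. LTF (gene identifier 397649, chromosome 13, 29413886 to 29445751, minus strand) encodes an iron-binding antimicrobial protein. It was at 4.58, 15.2 and 4.97 CPM in L − N, 18.8, 228 and 4.77 CPM in L + N, 6.11, 3.81 and 382 CPM in H − N, and 2.97, 3.53 and 9.93 CPM in H + N. All groups overlapped. The group means of L + N and H − N therefore rested on 1 library each. Without H − N replicate 3, the log2 estimate of H − N against L − N went from 3.98 to −0.72, and without L + N replicate 2 that of L + N against L − N went from 3.34 to 0.54. The interaction estimate was −7.92 (standard error 2.47) with an adjusted p of 0.279, it was −3.21 without H − N replicate 3, and DESeq2 gave an adjusted p of 0.0286.

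Neutrophil markers were also uneven between libraries. Of the 8 markers, 7 were tested, and MPO had at most 3 counts in any library. The summed level of the 7 was 208 CPM in H − N replicate 3, 106 CPM in L + N replicate 1 and 51.6 CPM in L + N replicate 2, and 9.16 to 54.4 CPM in the remaining libraries. LTF was at 382 CPM in H − N replicate 3, 18.8 CPM in L + N replicate 1 and 228 CPM in L + N replicate 2. It was at 15.2 CPM in L − N replicate 2, where the marker sum was 54.4 CPM. None of the 7 was differentially expressed against L − N by edgeR (1 in H + N, 1 in H − N and 0 in L + N at an unadjusted p under 0.05, and 1, 0 and 0 by DESeq2). The part of neutrophils in the LTF values was not tested.

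**Figure D3:**
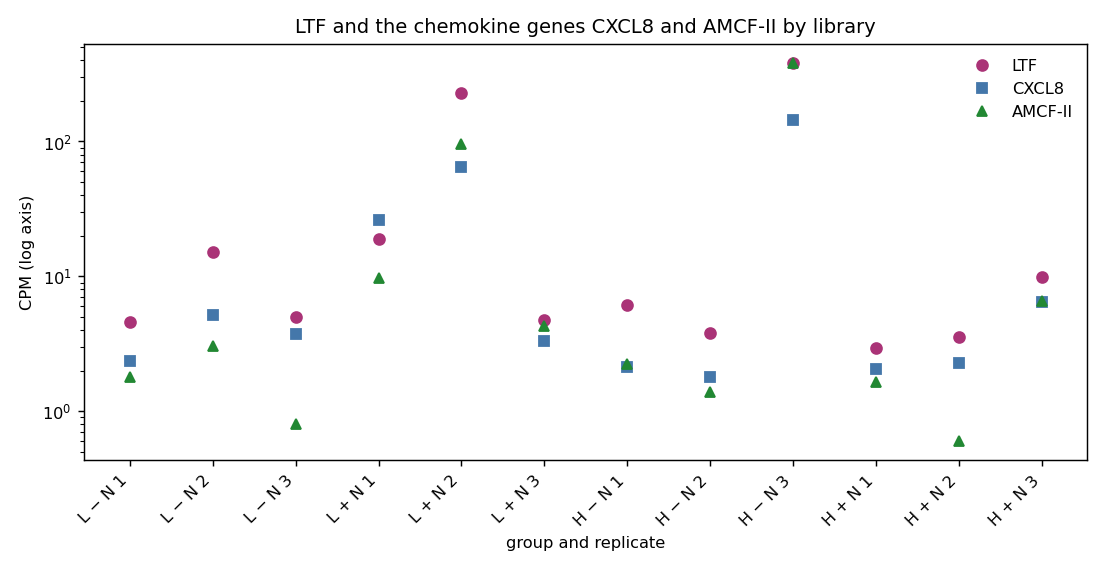
LTF and the chemokine genes CXCL8 and AMCF-II in each of the 12 libraries, in CPM on a logarithmic axis, with the group and replicate number along the horizontal axis. All of them reached their highest levels in H − N replicate 3 and their next highest in L + N replicate 2.

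S100G, or calbindin-D9k, buffers calcium as it crosses epithelial cells and is regulated by steroid hormones in the uterus. S100G (gene identifier 397265, chromosome X, 13107611 to 13114213, plus strand) lies inside the span of CTPS2 on the other strand, and since the counting strand is not given in the sources used here, reads of CTPS2 may be included. It was at 1.27, 11.5 and 1.95 CPM in L − N, 12.4, 18.4 and 23.0 CPM in L + N, 17.3, 13.9 and 9.79 CPM in H − N, and 39.4, 3.10 and 9.38 CPM in H + N. L − N replicates 1 and 3 were the lowest of all libraries, and every L + N library was above every L − N library. The estimates against L − N were 1.86 in L + N (standard error 0.894, adjusted p = 0.202), 1.80 in H + N (0.894, 0.217) and 1.47 in H − N (0.889, 0.334) on the log2 scale, and none passed the test. Without H + N replicate 1 the H + N estimate was 0.33, and without L − N replicate 2 it was 3.42.

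Across the 7 genes, few calls were made. In H + N against L − N, 2 of 7 were differentially expressed, ACP5 and UABP-2, both lower, where 3.58% of all genes tested were called and 1.28% were called lower. In H − N against L − N it was 1 of 7 (ACP5, lower) beside 2.91% called and 2.01% called lower, and in L + N against L − N it was again 1 of 7 (ACP5, lower) beside 3.99% and 0.671%. UABP-2 had passed the filter mainly through L − N, where it was high, and is not support for a count above the background. Without the filter the count in H + N against L − N was 1 of 7, ACP5. The median log2 fold changes of the 7 were −0.59, 0.31 and −0.53 in H + N, H − N and L + N, beside 0.02, 0.03 and −0.02 over all genes tested. The libraries did not overlap for ACP5 and SPP1 in H + N against L − N (both lower, as were 12.7% of all genes without overlap). In H − N against L − N they did not overlap for ACP5 (lower, 12.7% of all genes). In L + N against L − N they did not overlap for S100G (higher, 18% of all genes, while 17.2% were lower). UABP-2 was lower without overlap in all 3 comparisons, but it is left out of these tallies because it passed the filter mainly through L − N. Averaged over the other factor, 0 of 7 were called for fiber (0.0261% of all genes) and 0 of 7 for NCG (1.8%) by edgeR, where 3 and 2 of the 7 had an unadjusted p under 0.05 (19.5% and 23.6% of all genes) and DESeq2 called 1 and 2, beside 290 and 361 genes in all. For the interaction, edgeR called 0 of 7 and 0% of all genes, 2 of the 7 had an unadjusted p under 0.05 (12.8% of all genes), and DESeq2 called 1, beside 184 genes in all. Between H + N and H − N and between H + N and L + N, edgeR and DESeq2 called 0 of 7 and edgeR 0% of all genes, with 2 and 1 of the 7 at an unadjusted p under 0.05 (8.67% and 4.68% of all genes).

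**Figure D4:**
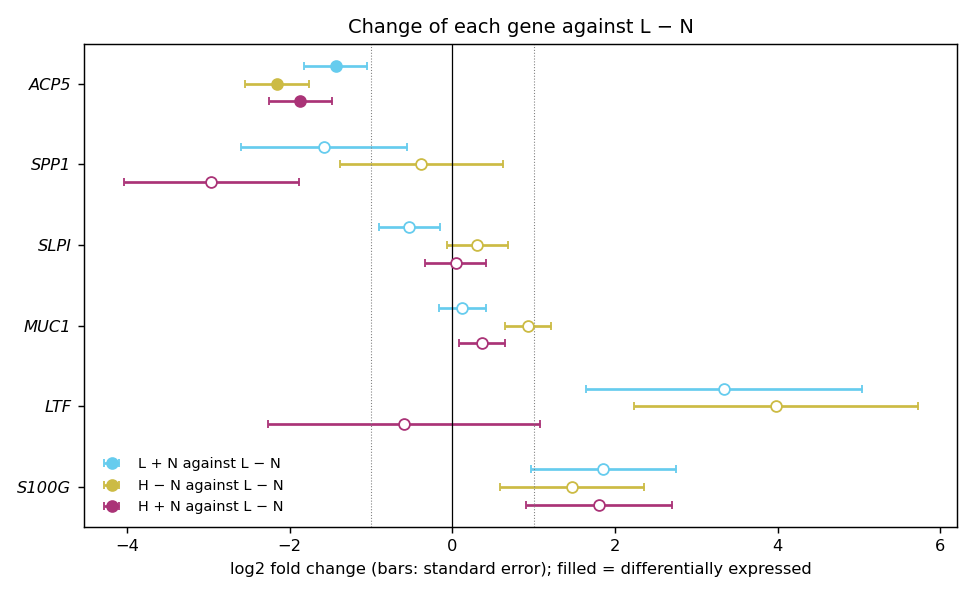
Log2 fold change of 6 of the genes in L + N, H − N and H + N against L − N (horizontal axis; bars show the standard error, filled points the differentially expressed cases, dotted lines a log2 fold change of −1 and 1). UABP-2 is left out because H + N was at the floor. The 3 filled points belong to ACP5, at −1.44, −2.15 and −1.87.

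Other genes of the uterine secretions were lower in several cases as well. Of 35 genes listed from general knowledge, with earlier results of these data known, 29 were tested. In H + N, 6 of the 29 were lower than in L − N, among them the apolipoprotein clusterin (CLU, log2 fold change −2.58, adjusted p = 0.0158), the lysosomal protease cathepsin H (CTSH, −1.68, 0.0316), the metalloprotease inhibitor TIMP2 (−1.22, 0.0329) and the whey acidic protein family member WFDC2 (−3.25, 0.0344). The others were cathepsin B (CTSB) and the galactoside-binding lectin LGALS3. In H − N, 6 were lower, namely CTSB, CTSH, CTSZ, LYZ (lysozyme), CLU and TIMP2. In L + N, 5 were lower, namely CST3 (cystatin C, an inhibitor of cathepsins), CTSB, TIMP2, CTSH and LGALS3. CST3 estimates in H + N (−0.957, adjusted p = 0.0136) and H − N (−0.704, 0.0250) missed only the threshold on the fold change. No gene of the list was called higher in these comparisons. Among all genes tested, 1.28% in H + N, 2.01% in H − N and 0.671% in L + N were called lower. The medians were −1.14 in H + N, −0.30 in H − N and −0.51 in L + N on the log2 scale, and that of H + N was the same with UPTI set to its bound.

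CTSB averaged 3114 ± 1623 CPM for L − N (SD, n = 3), against 1144 ± 85.6 CPM for L + N, then 946 ± 165 CPM for H − N, then 1226 ± 93.7 CPM for H + N, and its lowest L − N library had 1240 CPM. CLU fell from 4317 ± 2392 CPM in L − N to 722 ± 278 in H + N. The summed level of the list was 8344 to 21779 CPM in L − N and 5016 to 7776 CPM in the other groups, with no overlap. Cathepsins, lysozyme and galectin-3 are also abundant in macrophages, of whose 11 markers 4, 7 and 2 were called lower in H + N, H − N and L + N. The part of macrophage RNA in these differences was not tested. RBP4, the retinol carrier of the secretions, averaged 37.1 ± 9.34 CPM for L − N and 30.0 ± 27.9 CPM for H − N, but 10.2 ± 3.23 CPM for L + N and 12.1 ± 6.48 CPM for H + N. The H − N libraries ran from 7.91 to 61.3 CPM and overlapped both groups with NCG. In edgeR's test, RBP4 was the 1 gene of the 29 called for NCG (log2 fold change −1.59, adjusted p = 0.0488), beside 1.8% of all genes tested. Its differences from L − N in H + N (adjusted p = 0.114) and L + N (0.0790) missed the threshold. IGF1 had the highest estimate of the list in H + N (2.95 on the log2 scale, adjusted p = 0.0886), with libraries from 26.6 to 520 CPM.

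The counts of the list varied with the libraries, a check added after the data were seen. Without L − N replicate 3, 0 genes of the list were called in any of the 3 comparisons, and without L − N replicate 2 the numbers were 1, 0 and 0 in H + N, H − N and L + N. Without L − N replicate 1 they were 10, 9 and 8. Without H + N replicate 1 the number in H + N was 0 and without H + N replicate 3 it was 1. It was 0 to 1 in H − N when any H − N library was left out, and 0 to 1 in L + N when any L + N library was left out while in L + N it was 1 without H + N replicate 1 and 3 without H + N replicate 2. DESeq2 on all libraries called 14, 8 and 7 genes of the list. The macrophage list gave 0, 0 and 0 calls without L − N replicate 3 and 10, 11 and 9 without L − N replicate 1, and DESeq2 called 7, 11 and 4 of its genes. The numbers over all genes tested varied in the same settings. They were highest without L − N replicate 1, at 948, 1120 and 911 in H + N, H − N and L + N. They fell to 1 in H + N without H + N replicate 1, to 0 in H − N without H − N replicate 1, and to 143 in L + N without L − N replicate 3. DESeq2 on all libraries called 988, 913 and 883 genes. Leaving out a library also leaves fewer samples in the fit.

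**Figure D5:**
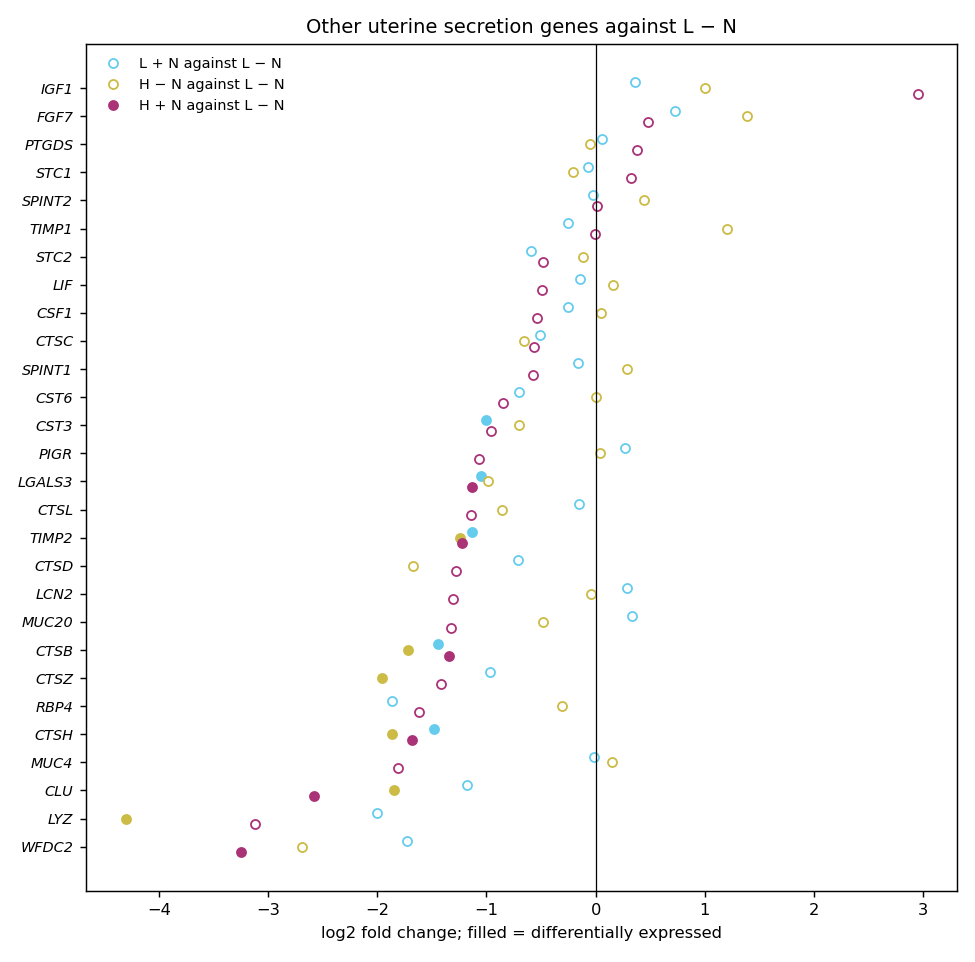
Log2 fold change of 28 other genes of the uterine secretions in L + N, H − N and H + N against L − N (horizontal axis; filled points are differentially expressed), sorted by the value in H + N. UPTI, at the floor in H + N, is left out. All filled points lie to the left of 0, among them CLU and WFDC2 at −2.58 and −3.25 in H + N.

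Some other genes of the secretion list were close to absent. UPTI, a plasmin and trypsin inhibitor, had 4 to 53 counts in L − N, 4 to 6 in L + N, 0 to 16 in H − N and 1 to 3 in H + N, at least 8.07-fold lower in H + N than in L − N against the floor, and its adjusted p was 0.0817. The L − N value rested on the library with 53 counts. PAEP had at most 3 counts per library, SCGB1A1 at most 4 and PTI at most 2, and GRP had 0 in every library. SERPINA14 and MUC16 were not analysed here.

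Integrins that bind osteopontin changed in both directions. All 11 receptor genes listed were tested. Called in either direction were 2, 3 and 2 of them in H + N, H − N and L + N. Over all genes tested, the shares called were 3.58%, 2.91% and 3.99%. ITGB3, the beta subunit of the vitronectin receptor, was lower than in L − N in H + N (log2 fold change −1.86, adjusted p = 0.0193), in H − N (−1.88, 0.0232) and in L + N (−1.38, 0.0331), from 46.8 ± 21.5 CPM in L − N to 12.7 ± 5.31 in H − N (SD, n = 3). ITGB8 was higher in H + N (1.30, 0.0302), in H − N (1.24, 0.0413) and in L + N (1.98, 0.00818), from 23.2 ± 1.36 CPM in L − N to 91.2 ± 20.3 in L + N. ITGB5 was lower in H − N (−1.06, 0.0179). Its estimates in H + N (−0.914, 0.0176) and L + N (−0.938, 0.0107) missed only the threshold on the fold change. The remaining 8 receptor genes, ITGAV, ITGB1 and CD44 among them, were not called in these 3 comparisons.

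Genes of iron handling were lower where they were called. Of 12 listed, 10 were tested, and 2, 3 and 1 of them were lower in H + N, H − N and L + N than in L − N, with 0 higher. The share of all genes tested that was called lower was 1.28%, 2.01% and 0.671%. CYBRD1, a ferric reductase, was lower in all 3 groups (log2 fold changes −1.02, −1.05 and −1.05, adjusted p = 0.0155, 0.0179 and 0.00818), at 495 ± 68.4 CPM in L − N and 240 to 244 CPM on average in the others. HMOX1, which degrades heme, was lower in H + N (−1.73, 0.0225) and H − N (−1.97, 0.0196), and FTL, the ferritin light chain, in H − N (−1.34, 0.0485). The estimates for TFRC, the transferrin receptor, were between −0.12 and 0.23, and none passed the test.

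Steroid and relaxin receptors were higher where they were called. All 8 genes of this list were tested, and relative to L − N there were 3 higher genes for H + N, then 1 for H − N, then 1 for L + N, with 0 lower. Over all genes tested, the shares called in either direction were 3.58%, 2.91% and 3.99%. The relaxin receptor RXFP1 was higher in H + N (log2 fold change 2.19, adjusted p = 0.0158), H − N (1.54, 0.0384) and L + N (1.48, 0.0294). The estrogen receptor ESR1 (1.25, 0.0161) and the progesterone receptor PGR (1.17, 0.0500, just under the threshold) were higher in H + N. ESR1 estimates were also positive in L + N (0.961, 0.0217) and H − N (0.849, 0.0473), which missed only the threshold on the fold change. PGR was at 32.9 ± 5.92 CPM in L − N and 74.0 ± 39.8 in H + N (SD, n = 3). Genes of calcium transport, the setting in which S100G acts, gave 0 calls of 11 tested by edgeR in each of the 3 comparisons, with 2, 3 and 2 at an unadjusted p under 0.05 in H + N, H − N and L + N (27.5%, 24.4% and 27.8% of all genes) and 1, 1 and 0 called by DESeq2. The calcium channel TRPV6 had an estimate of −1.44 in H + N (adjusted p = 0.179). When single libraries were omitted, the numbers called in H + N, H − N and L + N ranged over 0 to 3, 0 to 4 and 0 to 3 for the iron list, over 0 to 3, 0 to 3 and 1 to 3 for the integrins and over 0 to 3, 0 to 1 and 0 to 2 for the steroid and relaxin receptors. Leaving out L − N replicate 3 gave 0 calls for H + N in each of these lists. Over all genes tested, the numbers called with single libraries omitted ranged over 1 to 948, 0 to 1120 and 143 to 911.

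The genes whose levels followed each member most closely over the 12 libraries were found by Pearson's correlation of log2 CPM, given as a description because the libraries share group structure and composition. For ACP5 they were SLC8B1 (r = 0.971), MPP1 (0.964) and STK10 (0.961). SLC8B1 was at 31.8, 66.5 and 60.6 CPM in L − N and between 23.5 and 36.5 CPM in all other libraries, so it had the same low L − N replicate 1. For UABP-2 the closest were MCL1 (0.949), ADAMTS1 (0.940) and TRIM52 (0.925), although most of its values rest on few reads. For SPP1 they were MAP3K8 (0.929), TMEM87B (0.925) and complement C3 (0.902). For SLPI they were MAPRE3 (0.936), the water and glycerol channel AQP3 (0.935) and KIF19 (0.935). For MUC1, SLC33A1 (0.923) was among the closest. For LTF they were the neutrophil chemoattractants CXCL8 (0.963) and AMCF-II (0.960), and TNIP3 (0.940). For S100G they were AP1S3 (0.915), BCL2L10 (0.907) and MET (0.904).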

How the data were processed

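RNA of endometrium was sequenced in 12 libraries, 3 per dietary group, from strand-specific poly(A) libraries. The submitters' processing notes name fastp 0.22.0, HISAT2 2.1.0, HTSeq 0.9.1 and Sscrofa11.1, and the counting strand is not given in the sources used here. The authors deposited read counts per gene, without normalization, and FPKM values. The deposited FPKM differ by at most 1.91e-05 percent from values recomputed from counts, gene length and totals, and they were used only to compare levels between genes.

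Counts were analysed in R 4.3.3 with edgeR 4.0.16 (filterByExpr with a minimum count of 10, TMM, quasi-likelihood fit with a mean per group, 8 residual degrees of freedom). Thresholds were an adjusted p under 0.05 and an absolute log2 fold change above 1. The prior count for log2 CPM was 2, and a group with at most 3 counts in every library was taken as at the floor. Fiber and NCG effects are contrasts of the group means. DESeq2 1.42.0, other scaling, no filter, 2 groups alone, a replicate block and leaving out each library were alternatives. The method was tested on simulated data. Chi-square per gene between replicates of the same group was 23.7 to 103, so no libraries within a group were duplicates. Libraries of different groups were not compared in this way. The biological coefficient of variation was 0.269. Read number limits the precision of genes with few counts, such as UABP-2 and UPTI. S100G had 20 to 597 counts per library. The members and lists were chosen with earlier results of these data known. Named genes are the members, the 3 genes most correlated with each, and from each list up to 4 called genes per comparison by adjusted p, otherwise the 2 highest and the 2 lowest estimates, of which some are given. TFRC, ITGAV, ITGB1, CD44 and the undetected secretion genes were named after their values were seen. Some genes that the rule covers are not reported here.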

Additional observations from a re-analysis of the deposited data

How the results depend on the processing

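The number of the 7 genes called in H + N against L − N was 2. It was 3 with DESeq2, 1 without the filter on low counts, 1 with the replicate block, 0 with the 2 groups alone, and 0 to 3 with each library left out. In H − N against L − N it was 1, then 0 with the 2 groups alone and 0 to 1 with each library left out. In L + N against L − N it was 1, then 0 with library totals alone, with the 2 groups alone or with the replicate block, and 0 to 1 with each library left out. With DESeq2 the numbers were 1 for fiber, 2 for NCG and 1 for the interaction, each 0 in edgeR, and 3 instead of 1 over the 4 groups, which was 0 with the replicate block. Leaving out each library gave 0 to 1 for fiber, 0 for NCG, 0 to 1 for the interaction and 0 to 1 over the 4 groups. The 2 groups alone leave fewer samples in the fit, and the cause of the other changes was not tested. With the replicate block, ACP5 in L + N had an adjusted p of 0.0763, ACP5 over the 4 groups 0.0501 and UABP-2 in H + N 0.0548. Over all genes tested, edgeR called 549 in H + N, 446 in H − N and 613 in L + N against L − N. These were 87, 3 and 537 with the 2 groups alone, 988, 913 and 883 with DESeq2, 1223, 809 and 1474 by adjusted p alone, 397, 254 and 535 with the replicate block, and 1 to 948, 0 to 1120 and 143 to 911 with each library left out. DESeq2 called 290 genes for fiber, 361 for NCG, 184 for the interaction and 3365 over the 4 groups, where edgeR called 4, 276, 0 and 1068, and the replicate block left 1, 0 and 477 for fiber, the interaction and the 4 groups.

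Replicate numbers did not pair the samples. Of 18 same-numbered pairs, 3 had deviations correlated above 0.1 (range −0.32 to 0.28), and 3 of 12 libraries correlated best with their own number.

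The LTF fiber estimate turned from 0.0227 to −0.0161 with library totals alone and to −0.43 with the replicate block. Other reversals came from leaving out single libraries and touched no called value. The ranges of log2 estimates were −2.92 to 1.65 for the UABP-2 interaction, −2.60 to 0.49 for SPP1 in H − N against L − N and −1.88 to 1.22 for the SPP1 interaction. SLPI ranged from −0.34 to 0.60 in H + N, −0.0329 to 0.87 in H − N and −0.87 to 0.0298 in L + N against L − N, and from −0.29 to 0.61 for the interaction. MUC1 in L + N against L − N ranged from −0.0844 to 0.30. LTF ranged from −1.34 to 0.20 in H + N and −0.72 to 4.77 in H − N against L − N, from −5.32 to 0.13 in H + N against H − N, from −2.33 to 1.41 for fiber and from −2.01 to 1.74 for NCG. S100G ranged from −1.15 to 0.84 in H + N against H − N, −1.56 to 0.43 in H + N against L + N and −0.0373 to 1.51 for fiber.

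Over all estimates and alternatives of the 7 genes, 1023 kept their direction and side of the threshold, 36 lost a call, 10 gained one and 35 changed sign. Most of the 1023 had no call to lose, so this tally is not a measure of how stable the calls were. The 36 losses all fell on the few calls made, those of ACP5 against L − N and over the 4 groups, and that of UABP-2 in H + N. With 3 libraries per group, many of the intervals without a call include differences beyond the threshold, though some for MUC1 and SLPI do not, and UABP-2 and UPTI are limited by their few reads.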

Other observations

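Other cell type markers differed between libraries beside the genes described above. The summed level of 6 smooth muscle markers was 5197 CPM in the highest L − N library, replicate 1, and between 797 and 2001 CPM in the other libraries. In L + N against L − N, 2 of these 6 genes were lower, ACTA2 and TAGLN, where 0.671% of all genes tested were called lower. Red blood cell genes, led by HBB, summed to 62.4 to 752 CPM in L − N, 26.5 to 81.8 in L + N, 31.5 to 55.0 in H − N and 27.8 to 292 in H + N. The chorion list had 1 tested gene, PAG1, and 3 of its genes were at 0 in all libraries.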
